A study of Homo sapiens with 2 samples.

Results

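RNA polymerase III (Pol III) is the nuclear enzyme that makes short RNAs that are not translated, among them transfer RNAs and the smallest ribosomal RNA. The genes described here are 9 parts of its machinery: the subunits POLR3B, POLR3D, POLR3E, POLR3G and POLR3K, the initiation factors BRF1, BRF2 and GTF3A, and the repressor MAF1. Members were found by symbol, as every probe set that the platform annotation assigns to 1 of these genes alone. This gave 23 of the 54675 probe sets, for 9 of 19775 genes.

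The study compared HT-29 cells (a line from a human colorectal adenocarcinoma) transfected with a pool of siRNAs against MYC with cells given a non-targeting pool, to see how less MYC changes gene expression. Cells received 20 nM siRNA for 24 h and were used after 48 h. Each condition was measured on 1 array, so the differences below have no replicates behind them and no test was run. The treatment field of the control sample reads None, whereas its protocol names the non-targeting pool, and the array is called control siRNA here.

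Pol III is recruited to its genes by assemblies of transcription factors. TFIIIC, at the genes of the smallest ribosomal RNA together with TFIIIA (the GTF3A protein), recognises the gene, and TFIIIB, built on a BRF protein, then places the polymerase at the start. MAF1 binds the polymerase and holds it back when nutrients or growth signals are short. MYC is known to raise Pol III transcription, both by contact of its protein with TFIIIB and through the genes of the machinery.

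Signals below are given from the control siRNA array to the MYC siRNA array. On the 1 probe set that names it, the MYC transcript went from 1963 to 1640, 1.20-fold lower. Its log2 ratio of -0.26 became -0.16 when the arrays were aligned by loess and -0.17 when they were quantile normalized, beside an SD of 0.18 for genes as bright (the SD is described below). The study reports MYC knockdown by siRNA from immunoblots of the protein. It also reports decreased growth and lower expression of curated MYC target genes after this knockdown. Signals exceeded 50 in 16074 probe sets of the control array and in 16571 of the MYC siRNA array. Of 13 markers of colon epithelium, 10 were above 50 in at least 1 array, while CDX1, CDX2 and GPA33 were not, and the summed signal of all 13 was 36654 with control siRNA and 42904 with MYC siRNA. Of these 10 markers, 8 were higher with MYC siRNA (median log2 ratio 0.28), among them CEACAM5, LGALS4 and KRT19 by 2.18-fold, 1.72-fold and 1.52-fold. The part of this shift in the results below was not tested. Of 9 measured markers of other cell types, 1 (COL1A1, at 94.7 and 78.9) was above 50. This was so on 1 probe set only, and the others of COL1A1 were at 11.2 or lower in both arrays.

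Following the study's methods, signals under 50 were set to 50 before dividing the MYC siRNA signal by the control signal. A probe set at or under 50 in both arrays has no fold, and one that is under 50 in 1 array has a fold that is a lower bound. Each gene is represented by its brightest probe set. In place of replicate error, the SD of log2 ratios among the probe sets of one gene is given, which was 0.27 in dim genes, 0.23 in middle and 0.18 in bright genes. This SD leaves out the variation between cultures.

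Transcripts of 4 of the 5 member subunits (POLR3B, POLR3E, POLR3G and POLR3K) and of GTF3A were lower with MYC siRNA, while those of BRF2 and MAF1 stayed within the SD between probe sets. BRF1, under the floor with control siRNA, was at least 1.17-fold higher. This bound lies within that SD but does not place the change there, since the log2 ratio of BRF1 was 0.55 with a floor of 25. Of the 9 members, 8 exceeded 50 in at least 1 array, and 6 of these were lower and 2 were higher. Among all 8917 genes above 50, 46.5% were lower. The median log2 ratio of the 8 members was -0.46, beside 0.03 over all genes. A log2 ratio of -0.32 or lower was reached by 5 members (17.0% of all genes). At least 1.5-fold lower were 2 members (5.72% of all genes), and at least 2-fold lower, the study's threshold for DOWN DEGs, was 1 (0.695% of all genes). The members were chosen with results of these arrays known, so these counts are a description of them.

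**Figure D1:**
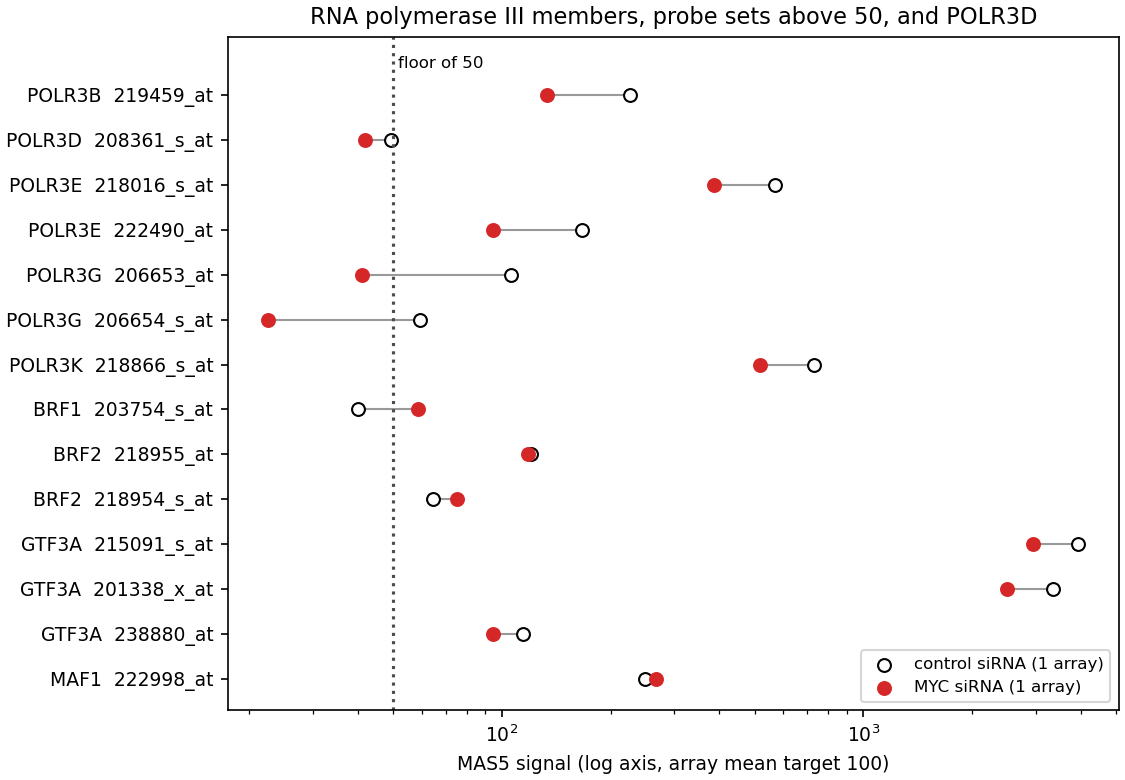
MAS5 signal (x axis, log scale) of each member probe set above 50 in at least 1 array, and of POLR3D, with control siRNA (open circles) and MYC siRNA (red circles), 1 array each; the dotted line is the floor of 50. All 6 probe sets of POLR3B, POLR3E, POLR3G and POLR3K shown moved left with MYC siRNA, as did the 3 of GTF3A, whereas those of BRF1, BRF2 and MAF1 did not move left by more than 1.02-fold.

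POLR3G had the largest ratio of the members. Its protein sits in a small subcomplex of the polymerase with POLR3C and POLR3F and is known from dividing and stem cells. The brightest probe set went from a signal of 106 to 41.1. The latter signal is below the floor, so POLR3G was at least 2.11-fold lower. A separate probe set went from 59.5 to 22.6, at least 1.19-fold lower, and the remaining one was under 50 in both arrays. Both measurable probe sets thus lost signal to below the floor, and the size of the change is known only as a bound. With a floor of 25 the log2 ratio of POLR3G was -1.36, with a floor of 100 it was -0.08, and averaged over its probe sets it was -0.44.

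POLR3B, which forms the catalytic centre together with POLR3A, went from a signal of 227 to 133. This is 1.70-fold lower, a log2 ratio of -0.77 beside an SD of 0.23 for equally bright genes, and 209 genes had a lower ratio. Its other probe sets were under 50 in both arrays, and counted as unchanged in a mean over probe sets they bring the log2 ratio to -0.26.

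POLR3E, a subunit that pairs with POLR3D on the flank of the polymerase, was measured by a pair of probe sets above 50. The brighter one went from a signal of 568 to 385, 1.47-fold lower. The dimmer one went from 166 to 94.4, 1.76-fold lower. Both were lower by more than the SD between probe sets, and they differ from each other by a log2 ratio of -0.56 against -0.82.

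POLR3D, the partner of POLR3E, went from a signal of 49.4 to 41.7. Its single probe set was under 50 in both arrays and has no fold.

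POLR3K, a small subunit that cleaves the RNA and serves termination, went from a signal of 732 to 516. This is 1.42-fold lower, a log2 ratio of -0.50 beside an SD of 0.18. Its other probe set was at 6.24 and 1.32.

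Among the initiation factors, GTF3A was lower. Its protein binds the genes of the smallest ribosomal RNA and also that RNA. The signal went from 3930 to 2947 in the brightest probe set, 1.33-fold lower. The others went from 3340 to 2497 (1.34-fold lower) and from 114 to 94.3 (1.21-fold lower), so all 3 had the same direction. The log2 ratio of GTF3A was -0.42, and the median of the brightest of 5 equal groups of genes, to which it belongs, was -0.10. After loess on mean signal the value was -0.27, and after quantile normalization -0.31.

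BRF2, the TFIIIB subunit used at genes of some small nuclear RNAs, had signals of 120 and 118 on the control and MYC siRNA arrays. Its other probe set went from 64.7 to 75.0, 1.16-fold higher. The probe sets pointed to opposite sides of no change, and each lay within the SD of 0.27.

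BRF1, the TFIIIB subunit used at transfer RNA genes, was close to the floor. Of its 4 probe sets, 1 went from a signal of 40.0 to 58.6, at least 1.17-fold higher. The log2 ratio of 0.23, beside an SD of 0.27, became 0.55 with a floor of 25. The other 3 probe sets were under 50 in both arrays, the brightest of them at 33.7 in each. No loss of BRF1 could have been measured from signals this dim.

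MAF1, the repressor, went from a signal of 250 to 267 on its single probe set, 1.07-fold higher. The log2 ratio of 0.10 is within the SD of 0.23.

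**Figure D2:**
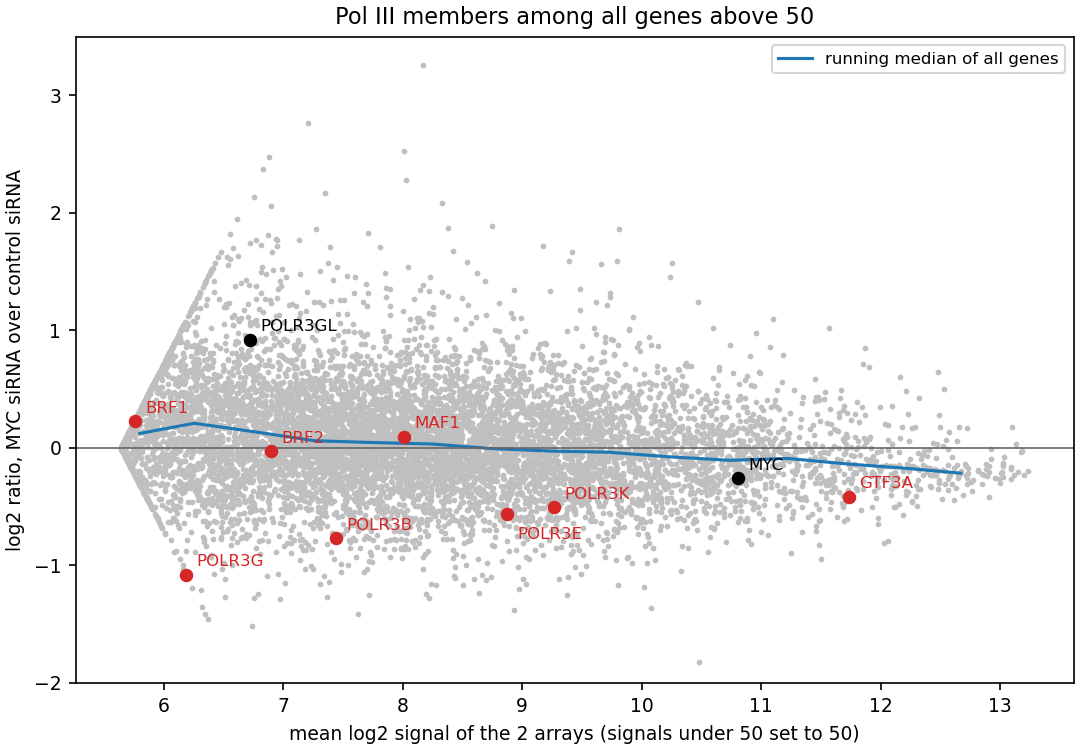
Log2 ratio between the arrays, MYC siRNA over control (y axis), against the mean log2 signal of both arrays (x axis), with signals under 50 set to 50, for 8917 genes (grey), the 8 members above 50 (red), and POLR3GL and MYC (black); the blue line is the running median of all genes. POLR3G (-1.08), POLR3B (-0.77), POLR3E (-0.56), POLR3K (-0.50) and GTF3A (-0.42) lie below the blue line. BRF2 and MAF1 lie near it, and the points of POLR3G and BRF1 are lower bounds on the size of the change.

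The rest of the polymerase moved unevenly. Of 5 further measured subunits that belong to Pol III alone, 4 were lower, and their median log2 ratio was -0.06. POLR3C, a partner of POLR3G, went from 217 to 154 (1.41-fold lower), and from 168 to 102 (1.64-fold lower) in its other probe set. The largest subunit POLR3A went from 168 to 161, the other partner of POLR3G, POLR3F, from 99.1 to 92.6, and the stalk subunit CRCP from 208 to 202. These 3 stayed within the SD between probe sets. A dimmer probe set of CRCP rose from 144 to 168 (1.17-fold higher), while one of POLR3A was 1.09-fold lower.

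POLR3GL went the other way. It is the paralogue that takes the place of POLR3G in a second form of the enzyme. Its signal went from 76.9 to 146, 1.89-fold higher on the 1 probe set that names it. Of all genes, 10.4% were higher by at least 1.5-fold, and 294 had a higher ratio than POLR3GL. No other measured subunit of Pol III was higher by that much. The log2 ratio of POLR3GL was 0.86 after loess and 0.82 after quantile normalization, and that of POLR3G was -1.18 and -1.13. Signals of different probe sets cannot be set against each other, so the arrays do not tell which paralogue was the more abundant.

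Taking the members and the further subunits together, 9 subunits of Pol III alone could be compared. Of these, 8 were lower and 1 was higher, with a median log2 ratio of -0.50. The members among them were chosen with results of these arrays known, and the 5 further subunits alone had a median of -0.06. The 7 subunits that Pol III shares with other polymerases had a median of -0.38, with 6 lower and 1 higher. After loess on mean signal their median was -0.30, with 5 lower and 2 higher. Among all genes above 50, 46.5% were lower. POLR2F and POLR2H, found in every nuclear RNA polymerase, were 2.01-fold lower (from 1048 to 523) and 1.71-fold lower (from 1092 to 640). POLR1C and POLR1D, shared with Pol I, were 1.31-fold and 1.32-fold lower. A further probe set of POLR1C went from 355 to 208 (1.71-fold lower), and those of POLR1D were 1.32-fold and 1.01-fold lower. POLR2E went from 1916 to 1644, 1.17-fold lower. POLR2K, at -0.02, changed sign to 0.07 after loess and after quantile normalization, and POLR2L stood at 0.08.

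By their brightest probe sets, the factors that bring Pol III to its genes were closer to no change than the shared subunits (median -0.38). They were not closer than the 5 further subunits of Pol III alone (median -0.06). The member subunits were chosen with results of these arrays known. Of 15 other factors (the rest of TFIIIB, the TFIIIC subunits, the SNAPc complex and a pair of activators), 13 were above 50, 10 were lower and 3 higher. Their median log2 ratio was -0.12, they ranged from -0.51 to 0.18, and none was lower or higher by at least 1.5-fold. Some dimmer probe sets of TFIIIC subunits were lower by more. The next brightest of GTF3C4 went from 193 to 118 (1.63-fold lower, beside 1.23-fold in the brightest), and the dimmest of GTF3C1 and of GTF3C2 were 1.33-fold and 1.38-fold lower, beside 1.04-fold lower and 1.10-fold higher. With BRF1, BRF2 and GTF3A added, 16 factors had a median of -0.11. Whether subunits and factors differ was not tested, since each condition has 1 array.

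Most genes that process Pol III transcripts were lower. Of 15 measured, 12 were lower and 3 higher, beside 46.5% lower among all genes above 50. The median log2 ratio was -0.33, and -0.27 both after loess and after quantile normalization. ELAC2 and RPP14 were lower by less than the SD between probe sets, and a dimmer probe set of RPP14 was 1.13-fold higher. RPP38 at 0.03 changed sign with median centring and with quantile normalization. RPP40 and POP1, proteins of the RNase P and RNase MRP particles, of which the former trims transfer RNA precursors, were 2.15-fold lower (from 507 to 236) and 1.62-fold lower (from 171 to 105). SSB, the La protein that binds the ends of new Pol III transcripts, went from 1496 to 942, 1.59-fold lower, and from 1409 to 940 in a further probe set. XPOT, which exports transfer RNA from the nucleus, was 1.53-fold lower (from 1717 to 1119), and 2.07-fold lower in its dimmer probe set. Of the RNAs made by Pol III, 16 were looked for and 1, RPPH1, had a probe set of its own, with signals of 7.46 and 1.54, so the output of the enzyme was not measured here.

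For comparison, the 13 genes of the Pol I machinery, which makes the large ribosomal RNAs, had a median log2 ratio of -0.38, with 12 lower and 1 higher. TAF1D, POLR1B and POLR1E were 1.71-fold, 1.71-fold and 1.67-fold lower. The 18 measured genes of Pol II and its general factors had a median of -0.20, with 13 lower and 5 higher. Of them, 1, GTF2H3, was lower by at least 1.5-fold (1.53-fold). After loess on mean signal the median was -0.35 for Pol I and -0.11 for Pol II. After quantile normalization it was -0.36 and -0.13. GTF2F1, at 0.01, changed sign in each of the 3 scaling alternatives.

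**Figure D3:**
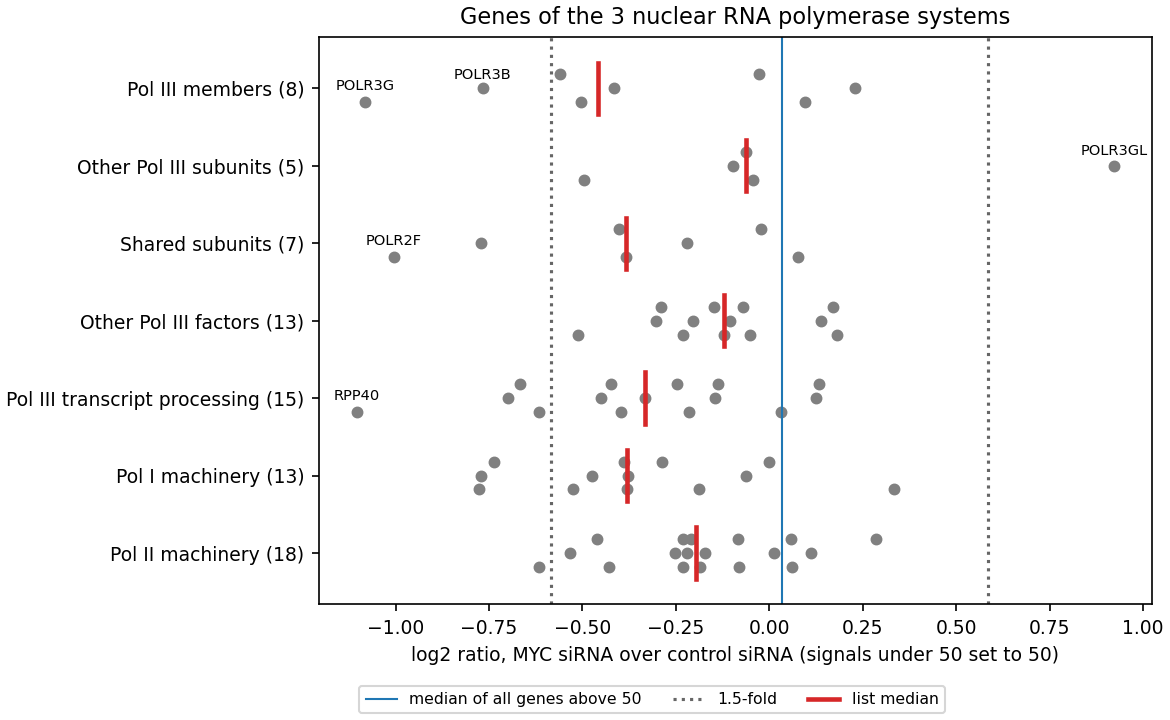
Grey points are genes above 50 in 7 lists (gene numbers in brackets), placed by their log2 ratio of MYC siRNA to control (x axis); a red bar is the median of a list, the blue line is the median of all genes (0.03) and dotted lines mark 1.5-fold. Medians run from -0.46 in the Pol III members to -0.06 in the other Pol III subunits, where POLR3GL stands alone to the right at 0.92.

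Promoters were searched for the binding sequence of MYC and its partner MAX, the E-box CACGTG, and for a weaker variant, CACGCG or its reverse complement CGCGTG. RefSeq promoters (GRCh38.p14, 250 bases before to 50 after a start site) were used. The set held none for POLR3G, POLR3D, BRF2 and MAF1, so these members were not searched. POLR3B, POLR3E, POLR3K, BRF1 and GTF3A had 10 start sites in all. On both strands, the E-box was in 1 of the 10 (that of POLR3E) and in 7.26% of all 35116 promoters of the table. The variant was in 3 of the 10 (POLR3B, POLR3E and POLR3K) and in 11.4% of all promoters. Neither was found in the windows of GTF3A or of the 5 start sites of BRF1.

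All genes searched were lower with MYC siRNA except BRF1, which was close to the floor. The place of a match therefore cannot be set against direction. All 5 matches are shown. Each is given in 30 bases on the strand of the gene, with the match in capitals. The E-box of POLR3E (chr16:22297396-22297425, plus strand) starts at the base before the start site. Its variants (chr16:22297259-22297288 and chr16:22297334-22297363) start 138 and 63 bases before it. The variant of POLR3K (chr16:53826-53855, minus strand) starts 235 bases before the start site, and that of POLR3B (chr12:106358111-106358140, plus strand) starts at base 14 of the transcript from the downstream of its 2 start sites.
POLR3E E-box: cccgctccccccCACGTGtccgccggagtt
POLR3E variant, distal: ggctcagttttgCGCGTGccatcagcgccc
POLR3E variant, proximal: agggggcggagcCGCGTGcaccggggcggg
POLR3K variant: aggccaagcgcgCACGCGcaggaactgcgg
POLR3B variant: agagccggcctcCGCGTGcgcgagtgaagg
A match describes the letters in the window, and binding of MYC was not measured.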

How the data were processed

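Gene expression was measured on 2 GeneChip Human Genome U133 Plus 2.0 arrays, 1 per condition. The intensity values deposited by the authors are MAS5 signals on a linear scale, computed with affy 1.40.0, each array having a mean target level of 100; leaving out the outer 2% at each end, their mean was 100 in both. Beyond this scaling they carry no floor and no normalization between arrays. By the platform annotation 41097 probe sets belong to 1 gene and 1801 to several, and 11777 have no entry. Gene identifiers were used to bring symbols to RefSeq, so that BRF1 is the TFIIIB gene and not an older alias of another.

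Signals under 50 were set to 50, log2 ratios were taken, and a gene took its brightest probe set that names it alone. Named are all members, MYC, the other subunits of Pol III, RPPH1, and genes of the factor, processing, Pol I and Pol II lists changed by at least 1.5-fold. Other genes were named after their values were seen. These are RPP38, RPP14, ELAC2, GTF2F1, GTF3C1, GTF3C2, GTF3C4, TAF1C, POLR1A, POLR1H, TTF1, UBTF and the markers. The members, lists and thresholds were chosen with earlier results of these data known, and the lists were written from memory. The calculations were tested on simulated data. Alternatives were 3 floors (25, 100, none with 1 added), median centring, quantile normalization, loess with a span of 0.3, a stricter filter, fewer probe sets and 2 ways to average probe sets. Python 3.11.15, numpy 2.4.6, pandas 2.3.3, statsmodels 0.14.6 and matplotlib 3.10.9 were used.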

Additional observations from a re-analysis of the deposited data

How the results depend on the processing

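The median log2 ratio of the members lay between -0.52 and -0.25 over 10 alternatives, and that of the other Pol III subunits and factors between -0.17 and -0.10. The number of members lower by at least 1.5-fold, 2 as reported, was 1 with a floor of 100, 0 with the mean log2 ratio over all probe sets, 1 at a threshold of 2-fold and 5 at a log2 ratio of -0.32 or lower. It was 3 with median centring and 3 when probe sets open to several transcripts were left out. The mean over probe sets counts those under 50 in both arrays as unchanged, and it set POLR3B to -0.26, POLR3K to -0.25, POLR3E to -0.34 and POLR3G to -0.44. POLR3G depended most on the floor, with -1.36 at a floor of 25 and -0.08 at a floor of 100, since its signal with MYC siRNA lies under the floor. BRF1 was 0.55 with a floor of 25. POLR3D, without a value in the report, was -0.24 with a floor of 25 and -0.05 after quantile normalization. Of 75 values for single members, 65 moved by less than the SD between probe sets. Many of them could hardly move, because the stricter filter leaves each ratio as it is and median centring shifts all by 0.03. Only POLR3B and POLR3G had ratios of at least 1.5-fold, and neither changed sign. BRF2 was higher, at 0.09 and 0.06, when probe sets were averaged (as log2 ratios or as signals). No paired analysis was possible because each condition has 1 array. Signals near the floor limit what can be said of POLR3G, BRF1, POLR3D and POLR3GL.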
